A study of Mus musculus with 7 samples.

Results

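The antioxidant and NRF2 pathway genes were followed in Paneth cells (PCs), which sit at the bottom of small intestinal crypts and secrete antimicrobial granules, after injection of tumour necrosis factor (TNF). The 34 members were listed by symbol and looked up among the 55414 gene identifiers of the deposited count table, and all 34 were found. PCs had been purified with a cell sorter from the small intestine of C57BL/6J mice 15 h after an injection of TNF or of phosphate-buffered saline (PBS), the control. There were 3 PBS and 4 TNF libraries, each from a different mouse, with total counts from 15511455 to 19193721. No genetic alteration is named for either group. The sources used here do not give the dose of TNF, the age and sex of the mice, the surface markers of the sort or any date, and batches could not be examined.

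NRF2, encoded by Nfe2l2, is a transcription factor that the cytosolic sensor KEAP1 holds for degradation until oxidants or electrophiles modify KEAP1. Freed NRF2 pairs with small MAF proteins at antioxidant response elements and raises enzymes that make glutathione, reduce thioredoxin, and remove peroxides and quinones. The glutathione and thioredoxin systems both draw on NADPH, while superoxide dismutases and catalase do not. In the intestine, glutathione peroxidase 2 is the form typical of the epithelium, and secretory cells carry a further oxidant load from forming disulfide bonds in the endoplasmic reticulum.

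The bases before the transcription start were read for the members because many of them moved together, and 4 stretches are shown. They come from RefSeq on build GRCm38.p6 (mm10) and hold 250 bases each, 5′ to 3′ on the strand of the gene. Capitals mark the core of the antioxidant response element, searched as TGACNNNGC on both strands. Prdx1, Txnrd1 and Gclm are members that rose after TNF and hold such a core before their start, and Gpx2 is the member with the strongest rise and holds none in this window.
Gpx2 promoter (chr12:76795555-76795804, minus strand): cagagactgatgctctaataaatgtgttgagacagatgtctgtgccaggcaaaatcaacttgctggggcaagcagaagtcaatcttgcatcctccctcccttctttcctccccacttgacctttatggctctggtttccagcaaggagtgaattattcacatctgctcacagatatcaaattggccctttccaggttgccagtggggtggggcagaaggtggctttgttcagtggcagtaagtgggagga
Prdx1 promoter (chr4:116685349-116685598, plus strand): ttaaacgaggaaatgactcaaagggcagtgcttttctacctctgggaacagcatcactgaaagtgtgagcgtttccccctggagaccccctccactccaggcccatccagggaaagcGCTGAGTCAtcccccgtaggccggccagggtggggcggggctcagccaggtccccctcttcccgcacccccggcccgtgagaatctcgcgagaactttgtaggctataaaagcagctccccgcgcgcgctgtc
Txnrd1 promoter (chr10:82858956-82859205, plus strand): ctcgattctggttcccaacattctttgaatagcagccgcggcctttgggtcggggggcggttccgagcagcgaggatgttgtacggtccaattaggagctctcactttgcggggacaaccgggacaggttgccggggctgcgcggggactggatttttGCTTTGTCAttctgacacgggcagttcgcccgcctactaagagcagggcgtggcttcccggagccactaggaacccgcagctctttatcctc
Gclm promoter (chr3:122245307-122245556, plus strand): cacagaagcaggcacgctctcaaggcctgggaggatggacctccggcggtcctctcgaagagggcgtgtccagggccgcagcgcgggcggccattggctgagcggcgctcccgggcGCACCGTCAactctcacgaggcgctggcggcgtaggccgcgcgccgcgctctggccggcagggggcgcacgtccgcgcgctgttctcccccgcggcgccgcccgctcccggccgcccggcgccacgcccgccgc
A window of 300 bases, which adds the 50 bases after the start, was found for 28 of the 34 members, and 7 of them (25%) held the core in at least 1 window. Over all 27025 genes with a window the share was 14%. The other 4 members with a core were Nfe2l2 and Ggt1, which were not called different after TNF, and Sod1 and Srxn1, which were called higher. Keap1, Nqo1, Gss, Txn1, Txn2, Txnip, Prdx5, Gpx1 and Sod2 were also called higher and, like Gpx2, had a window without the core. Hmox1, Gclc, Gsr, Prdx6, Sod3 and Msra had no window in the table used. A further motif, GGGA and TTCC with 2 free bases between them, one form of the site bound by the TNF-activated factor NF-kB, was found on either strand in 1 member (Gpx1, 3.57% of members) and in 1.63% of all genes. No window of a member held both motifs, and a match describes letters only, not binding.

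After TNF, genes of glutathione synthesis, the cytosolic thioredoxin system and glutathione peroxidase 2 were higher. Catalase, mitochondrial thioredoxin reductase, the glutaredoxin gene Glrx and the methionine sulfoxide reductase genes Msra and Msrb1 were lower. The transcript of NRF2 itself was not called different. Of the 34 members, 31 passed the filter on low counts and were tested with the quasi-likelihood test of edgeR, and 24 (77.4%) were differentially expressed genes (DEGs), with an adjusted p below 0.05. Among them, 18 (58.1% of tested members) were higher and 6 (19.4%) were lower after TNF. Among all 14329 genes tested, 59.6% were DEGs, with 29.5% higher and 30.1% lower. DEGs were therefore common among all genes, and the members stood above that level for rises and below it for falls. The members and the gene lists below were chosen with earlier results of these data known, so such shares are descriptive only. The median log2 fold change was 0.75 over the tested members and 0.0017 over all tested genes. A rise of at least 2-fold was called for 11 members (all genes: 14.4%) and a fall of that size for 3 (all genes: 17.2%). The values of the TNF libraries lay outside those of the PBS libraries for 24 of the 31 tested members, against 60.7% of all genes.

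**Figure D1:**
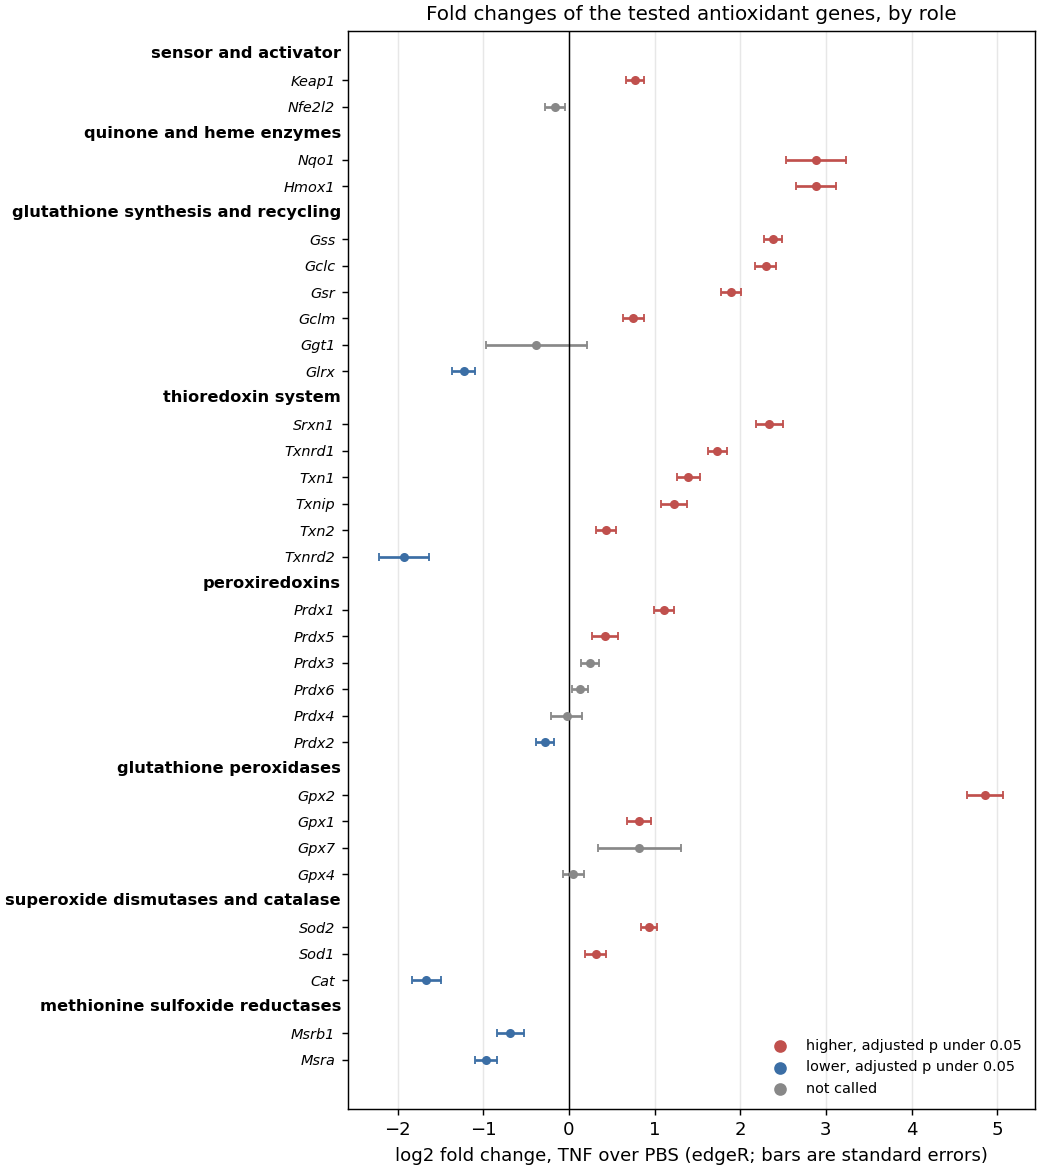
Log2 fold changes, TNF over PBS, of the 31 tested members by role, with standard errors from the edgeR fit as bars. Red points are DEGs that were higher, blue points DEGs that were lower, grey points were not called. Gpx2 lies farthest to the right at 4.86 and Txnrd2 farthest to the left at -1.93.

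Markers were checked first. The PC markers Lyz1, Mmp7, Ang4, Itln1, Clps and Defa24 were abundant in every library, with a summed level of 164096 to 263606 CPM (counts scaled to a library size of 1e6) after PBS and 158025 to 283699 CPM after TNF. Of these 6, Mmp7 was higher and Clps lower after TNF. Marker transcripts of other cell types were present and moved with treatment: tuft markers summed to 1447 to 2352 CPM after PBS and 272 to 703 CPM after TNF (6 of 6 lower), goblet markers to 6669 to 12821 and 6169 to 6791 CPM (4 of 6 lower, 1 higher), and stem cell markers to 2984 to 4012 and 1525 to 2164 CPM (5 of 6 lower). Enterocyte markers summed to 206 to 301 CPM after PBS and 61.8 to 78.6 CPM after TNF (5 of 7 tested lower, 1 higher), and enteroendocrine markers to 31.6 to 89.5 and 9.37 to 20.3 CPM (2 of 6 lower). Leukocyte markers summed to 12.6 to 26.9 and 14.7 to 17.2 CPM, with S100a9 higher (0 and 399 counts) and Ptprc lower among 3 tested genes, and Cd3e had 0 counts in every library. Stromal and endothelial markers summed to at most 0.458 CPM. Hba-a1, Hba-a2, Hbb-bs and Hbb-bt had 0 counts in every library; red blood cells are rich in catalase and peroxiredoxin 2. The share of counts from mitochondrially encoded genes was 0.424 to 0.674% after PBS and 0.219 to 0.365% after TNF. In bulk samples, fewer cells of a type and less RNA per cell cannot be told apart, and the part of these markers in the values that follow was not tested.

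Coordinates are those of GRCm39. Nfe2l2 (ENSMUSG00000015839, chromosome 2, 75504739 to 75534985), the gene of NRF2, was at 57.9, 62.4 and 56.5 CPM in the PBS libraries and 56.8, 44.4, 50.4 and 59.5 CPM in the TNF libraries. The groups overlapped, and the log2 fold change was -0.16 ± 0.12 (SE, with adjusted p = 0.254 in edgeR), which is not a call. Keap1 (ENSMUSG00000003308, chromosome 9, 21141026 to 21150679), the gene of its sensor, was at 53.7, 50.7 and 45.5 CPM in the PBS libraries and 77.3, 88.5, 87.6 and 87.1 CPM in the TNF libraries. Every TNF library was above every PBS library, by a log2 fold change of 0.77 ± 0.10 (SE, with adjusted p = 2.32e-05 in edgeR), or 1.7-fold.

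The quinone reductase and the heme oxygenase, both classical NRF2 targets, were low after PBS and rose by similar factors. Nqo1 (ENSMUSG00000003849, chromosome 8, 108113835 to 108129934), which reduces quinones in a single step, was at 0.804, 2.29 and 2.65 CPM in the PBS libraries and 12, 9.9, 18.2 and 17.4 CPM in the TNF libraries. Its log2 fold change was 2.89 ± 0.35 (SE, with adjusted p = 1.53e-05 in edgeR). Hmox1 (ENSMUSG00000005413, chromosome 8, 75820241 to 75827217), which breaks down heme, was at 2.1, 2.24 and 2.02 CPM in the PBS libraries and 10.8, 17.9, 16.6 and 17.3 CPM in the TNF libraries. Both genes separated the groups fully, and Hmox1 had a log2 fold change of 2.88 ± 0.23 (SE, with adjusted p = 1.85e-07 in edgeR). Over the PBS libraries these genes had 108 and 116 counts in all, so their folds of 7.39 and 7.36 rest on a shallow base.

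Glutathione is made by glutamate-cysteine ligase, whose catalytic and modifier subunits are encoded by Gclc and Gclm, and then by glutathione synthetase, encoded by Gss. Gclc (ENSMUSG00000032350, chromosome 9, 77661797 to 77701770) was at 74.7, 67.1 and 55.7 CPM in the PBS libraries and 311, 326, 340.4 and 318 CPM in the TNF libraries, a log2 fold change of 2.30 ± 0.12 (SE, with adjusted p = 3.79e-09 in edgeR). Gss (ENSMUSG00000027610, chromosome 2, 155405096 to 155455505) was at 27.8, 30.3 and 28.8 CPM in the PBS libraries and 138, 149.8, 158 and 158 CPM in the TNF libraries, with a log2 fold change of 2.38 ± 0.11 (SE, with adjusted p = 6.74e-10 in edgeR). The rises were 4.92-fold and 5.21-fold, with tight TNF libraries. Exons of Gss overlap those of Acss2 on the other strand, and since the use of strand in counting is not given, reads of that stretch may belong to either gene. The modifier subunit Gclm moved less, with 48.7 ± 4.57 CPM after PBS and 81.9 ± 11.1 CPM after TNF (SD, n = 3 and 4) and a log2 fold change of 0.75 ± 0.12 (SE, with adjusted p = 0.000119 in edgeR).

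Glutathione is kept reduced by glutathione reductase, encoded by Gsr (ENSMUSG00000031584, chromosome 8, 34142551 to 34188192), which was at 80.0, 74.2 and 71.5 CPM in the PBS libraries and 239.5, 270.4, 314 and 293 CPM in the TNF libraries. It rose 3.71-fold, a log2 fold change of 1.89 ± 0.12 (SE, with adjusted p = 1.78e-08 in edgeR). Glrx (ENSMUSG00000021591, chromosome 13, 75987974 to 76002178), the gene of the cytosolic glutaredoxin that removes glutathione from proteins, went the other way and was at 25.3, 30.0 and 31 CPM in the PBS libraries and 11.8, 11.4, 12.6 and 13.4 CPM in the TNF libraries. Its log2 fold change was -1.23 ± 0.13 (SE, with adjusted p = 3.05e-06 in edgeR), 2.34-fold lower after TNF with no overlap of the groups. Other glutaredoxin genes did not follow Glrx. Glrx5 was called higher (0.63 ± 0.14, SE, with adjusted p = 0.00179 in edgeR), and Glrx2 and Glrx3 were not called. Ggt1, which cleaves glutathione outside the cell, had 38 counts in all after PBS and 36 after TNF, with a log2 fold change of -0.38 ± 0.59 (SE, with adjusted p = 0.598 in edgeR), and was not called.

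**Figure D2:**
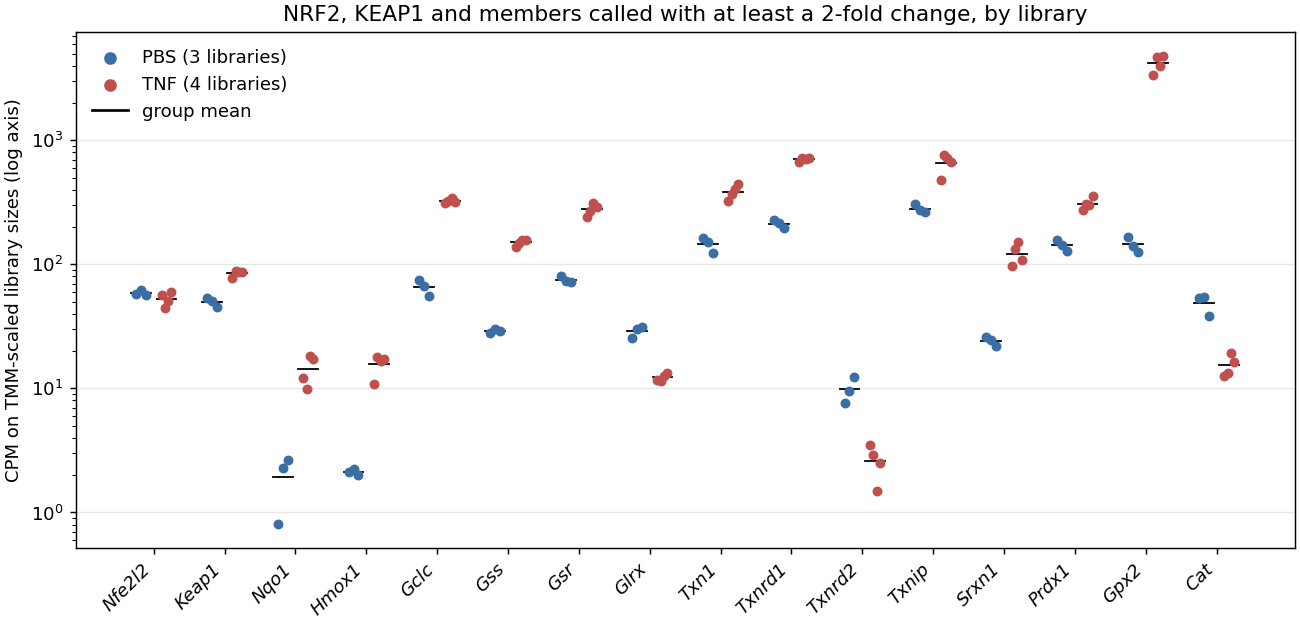
CPM on TMM-scaled library sizes (log axis) of Nfe2l2, Keap1 and each member called with at least a 2-fold change, with 1 point per library and black lines at the group means. Except for Nfe2l2, the 3 PBS points (blue) and 4 TNF points (red) of each gene do not overlap.

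The reductases of the thioredoxin system moved in opposite directions in the cytosol and in mitochondria, while both thioredoxins were higher. Txn1 (ENSMUSG00000028367, chromosome 4, 57934208 to 57956424), cytosolic thioredoxin, was at 163, 153 and 125 CPM in the PBS libraries and 323, 372, 403 and 445 CPM in the TNF libraries, a log2 fold change of 1.39 ± 0.14 (SE, with adjusted p = 1.14e-06 in edgeR). Txnrd1 (ENSMUSG00000020250, chromosome 10, 82669785 to 82733546), the selenoenzyme that reduces it, was at 227, 214 and 195 CPM in the PBS libraries and 675, 717, 709.9 and 715 CPM in the TNF libraries. The TNF libraries were close to each other, and the log2 fold change of Txnrd1 was 1.73 ± 0.11 (SE, with adjusted p = 2.24e-08 in edgeR). Txnrd2 (ENSMUSG00000075704, chromosome 16, 18245134 to 18297823), the mitochondrial reductase, was at 7.66, 9.52 and 12.3 CPM in the PBS libraries and 3.47, 2.89, 1.5 and 2.49 CPM in the TNF libraries. It was 3.8-fold lower, with a log2 fold change of -1.93 ± 0.29 (SE, with adjusted p = 5.99e-05 in edgeR) on 543 counts in all after PBS and 177 after TNF. Mitochondrial thioredoxin, Txn2, rose slightly from 55.3 ± 6.21 to 74.6 ± 7.92 CPM (SD, n = 3 and 4), a log2 fold change of 0.43 ± 0.12 (SE, with adjusted p = 0.00563 in edgeR), and this call was lost with scaling by total counts only (0.27, adjusted p = 0.0738).

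Txnip (ENSMUSG00000038393, chromosome 3, 96465267 to 96469201), whose product binds thioredoxin and limits its activity, rose together with Txn1 and was at 308, 273 and 265 CPM in the PBS libraries and 481, 762, 727 and 668 CPM in the TNF libraries. TNF replicate 1 was the lowest of its group but still above every PBS library, and the log2 fold change was 1.22 ± 0.15 (SE, with adjusted p = 1.14e-05 in edgeR). Srxn1 (ENSMUSG00000032802, chromosome 2, 151947436 to 151957687), sulfiredoxin, which repairs overoxidised peroxiredoxins, was at 25.8, 24.6 and 21.9 CPM in the PBS libraries and 97.3, 132, 150.5 and 108 CPM in the TNF libraries. It rose 5.07-fold, a log2 fold change of 2.34 ± 0.15 (SE, with adjusted p = 2.75e-08 in edgeR).

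Peroxiredoxins reduce hydrogen peroxide with electrons from thioredoxin or, for Prdx6, from glutathione, and the 6 genes did not move as a block. Prdx1 (ENSMUSG00000028691, chromosome 4, 116532123 to 116558398), the abundant cytosolic form, was at 156, 145 and 129 CPM in the PBS libraries and 275, 307, 303 and 354 CPM in the TNF libraries and had a log2 fold change of 1.11 ± 0.12 (SE, with adjusted p = 2.45e-06 in edgeR). Prdx2, its cytosolic relative, fell slightly, with 74.1 ± 5.04 CPM after PBS and 60.9 ± 5.36 CPM after TNF (SD, n = 3 and 4) and a log2 fold change of -0.28 ± 0.10 (SE, with adjusted p = 0.0307 in edgeR). Prdx5, found in several compartments, was called higher, with a log2 fold change of 0.42 ± 0.15 (SE, with adjusted p = 0.0298 in edgeR) and overlapping groups. Both small calls depended on single libraries. That of Prdx2 failed without PBS replicate 1 (-0.25) or 2 (-0.25) and without TNF replicate 1 (-0.24) or 3 (-0.27), without the filter on low counts (-0.28) and in DESeq2 (-0.29). That of Prdx5 failed, among other settings, without PBS replicate 2 (0.44) or 3 (0.28) and without TNF replicate 3 (0.32) or 4 (0.39), and with total-count scaling (0.27).

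The remaining peroxiredoxins were not called. Prdx3 of mitochondria had 48.3 ± 1.16 CPM after PBS and 57.4 ± 4.65 CPM after TNF (SD, n = 3 and 4) and a log2 fold change of 0.25 ± 0.10 (SE, with adjusted p = 0.053 in edgeR), and it was called without TNF replicate 1 (0.30, adjusted p = 0.0171). Prdx4, the form of the endoplasmic reticulum, had 13.6 ± 0.78 CPM after PBS and 13.4 ± 2.88 CPM after TNF and a log2 fold change of -0.03 ± 0.18 (SE, with adjusted p = 0.908 in edgeR). The TNF values of Prdx6 lay just above those after PBS, at 97.2 ± 0.849 CPM after PBS and 106 ± 5.48 CPM after TNF, with a log2 fold change of 0.13 ± 0.09 (SE, with adjusted p = 0.239 in edgeR). Exons of Prdx2, Prdx4 and Prdx5 overlap protein-coding genes on the other strand (Junb and Rnaseh2a, Acot9, and Trmt112), and 7.66% of the 75-base windows of Prdx1 also occur in other annotated genes.

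Glutathione peroxidases reduce hydrogen or lipid peroxides with glutathione, and 1 of the 6 genes changed far more than any other member. Gpx2 (ENSMUSG00000042808, chromosome 12, 76839107 to 76842326), the gastrointestinal form, was at 166, 142 and 127 CPM in the PBS libraries and 3359, 4694, 3944 and 4817 CPM in the TNF libraries. No TNF library came near the range of the PBS libraries. Gpx2 rose 29-fold, with a log2 fold change of 4.86 ± 0.21 (SE, with adjusted p = 6.21e-10 in edgeR), which was rank 158 among the rises of 14329 genes, and no exon of another annotated gene overlaps it. A pseudogene copy, Gpx2-ps1, shares 10.3% of its 75-base windows and had 20 counts after PBS and 70 after TNF, against 7857 and 286911 for Gpx2. Gpx2 made up 6.82 to 7.7% of the counts of all members after PBS and 48.4 to 53.5% after TNF. The members together held 0.2 to 0.226% of all counts after PBS and 0.743 to 0.815% after TNF, and without Gpx2 0.185 to 0.21% and 0.352 to 0.409%.

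Gpx1, the cytosolic form found in most cells, rose from 73.2 ± 6.47 to 129 ± 23.2 CPM (SD, n = 3 and 4), a log2 fold change of 0.82 ± 0.14 (SE, with adjusted p = 0.00016 in edgeR). Gpx4, the phospholipid form that protects cells from ferroptosis, had 18.8 ± 1.23 CPM after PBS and 19.4 ± 0.804 CPM after TNF and was not called, with a log2 fold change of 0.05 ± 0.13 (SE, with adjusted p = 0.741 in edgeR). In its case 62.5% of the 75-base windows occur in other annotated genes, so its counts depend on how reads with several matches were treated. Gpx7 of the endoplasmic reticulum had 56 counts in all after PBS and 125 after TNF, and a log2 fold change of 0.82 ± 0.48 (SE, with adjusted p = 0.159 in edgeR). Gpx3, the plasma form, with 28 and 11 counts, and Gpx8, another form of the endoplasmic reticulum, with 0 and 5 counts, did not pass the filter. The 0 counts of Gpx8 over the PBS libraries allow up to 3, for counting error only.

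Superoxide dismutases turn superoxide into hydrogen peroxide, which catalase and the peroxidases then remove. Sod2, the manganese enzyme of mitochondria and a known TNF-inducible gene, rose 1.91-fold from 64.4 ± 1.01 to 123 ± 3.04 CPM (SD, n = 3 and 4), a log2 fold change of 0.93 ± 0.09 (SE, with adjusted p = 1.23e-06 in edgeR). The spread within both groups was small beside this change. Sod1, the cytosolic copper-zinc enzyme, was called higher by 0.31 ± 0.12 (SE, with adjusted p = 0.0358 in edgeR) on the log2 scale, with overlapping groups. The call failed, among other settings, without PBS replicate 2 (0.36) or 3 (0.22) and without TNF replicate 2 (0.26), 3 (0.28) or 4 (0.30), in DESeq2 (0.30) and with total-count scaling (0.15). Exons of Sod1 overlap Scaf4 on the other strand. Sod3, the extracellular enzyme, had 6 counts in all and was not tested.

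Cat (ENSMUSG00000027187, chromosome 2, 103284194 to 103316185), catalase, which breaks down hydrogen peroxide in peroxisomes, was at 53.2, 54.2 and 38.6 CPM in the PBS libraries and 12.6, 13.2, 19.3 and 16.2 CPM in the TNF libraries. It was 3.17-fold lower after TNF, a log2 fold change of -1.66 ± 0.17 (SE, with adjusted p = 1.52e-06 in edgeR), with no overlap of the groups. Of the methionine sulfoxide reductases, which repair oxidised methionine in proteins, the members Msra and Msrb1 fell as well. Msrb2, a further pathway gene, was not called (log2 fold change -0.53 ± 0.49, SE, with adjusted p = 0.371 in edgeR), and Msrb3 was not tested. Msra had 29.4 ± 3.15 CPM after PBS and 15 ± 0.923 CPM after TNF (SD, n = 3 and 4) and a log2 fold change of -0.97 ± 0.13 (SE, with adjusted p = 1.85e-05 in edgeR). Msrb1, a selenoprotein, had 47.7 ± 5.71 CPM after PBS and 29.7 ± 6.16 CPM after TNF and a log2 fold change of -0.68 ± 0.16 (SE, with adjusted p = 0.00197 in edgeR). These falls held in sign and call under each alternative that was run.

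Levels of different genes were compared per kb of the canonical transcript of each gene in GENCODE M39. After PBS, Txn1 was highest at 186 ± 25.1 CPM per kb (SD, n = 3), followed by Gpx2 at 136 ± 18.6, Txnip at 99.5 ± 7.92, Gpx1 at 68.3 ± 6.03, Txnrd1 at 63.7 ± 4.8 and Prdx1 at 53.6 ± 5.03. The SD ranges of Gpx1 and Txnrd1 overlap, so that order is not settled, while Txn1, Gpx2 and Txnip lie further apart than their SDs. After TNF the order began with Gpx2 at 3954 ± 642 CPM per kb (SD, n = 4), then Txn1 at 488 ± 65.2, Txnip at 233 ± 44.1, Txnrd1 at 212 ± 5.87, Gpx1 at 121 ± 21.6 and Prdx1 at 116 ± 12.3. The SD ranges of Txnip and Txnrd1 overlap, as do those of Gpx1 and Prdx1. Gclc went from rank 15 of 34 to 8, and Cat from 16 to 26. The length used matters: per kb of all annotated exons, Txnip ranked 1 and Gpx2 4 after PBS, although Gpx2 again ranked 1 after TNF.

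**Figure D3:**
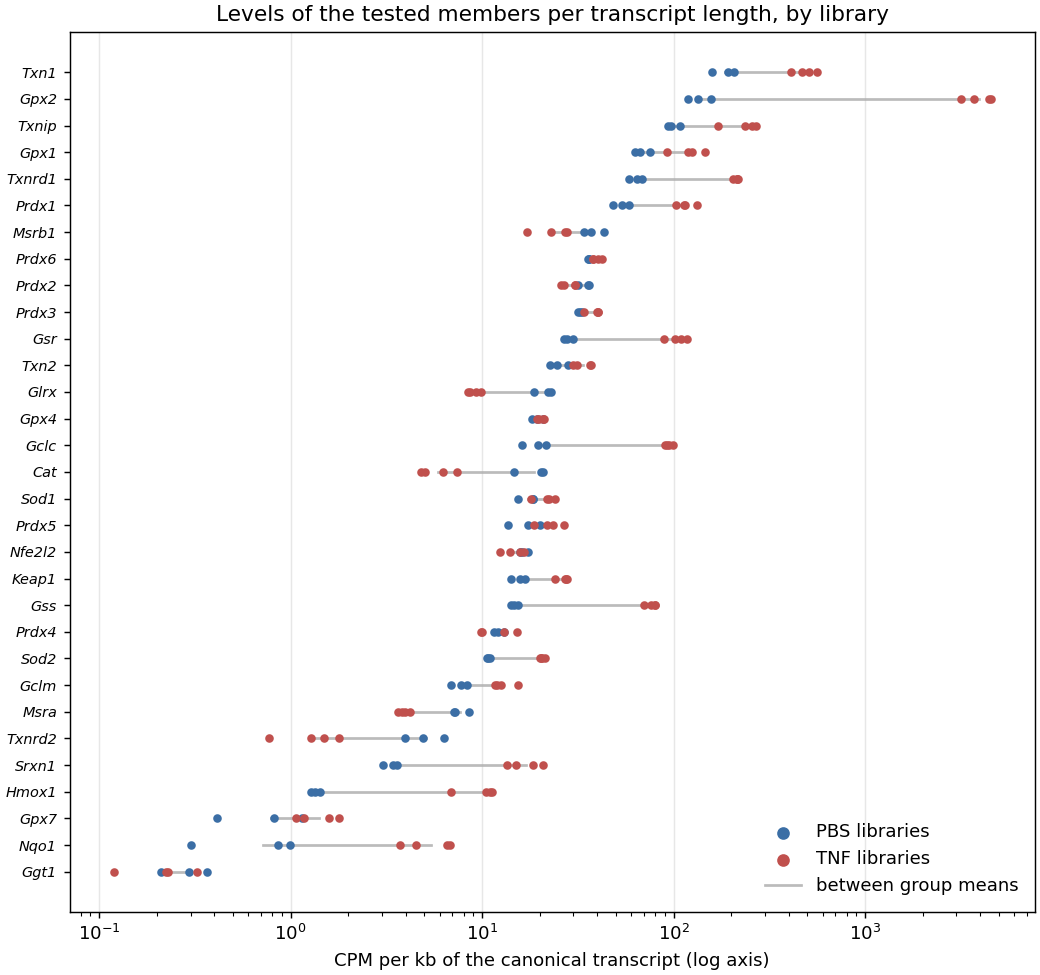
CPM per kb of canonical transcript (log axis) of the 31 tested members, ordered by the PBS mean, with 1 point per library. Gpx2 moves from 136 to 3954 CPM per kb on average, while Prdx6, Gpx4 and Nfe2l2 stay within a narrow range.

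Partner genes were set against each other within each library as ratios of counts, which do not depend on library scaling, and 6 ratios were tested by exact permutation, using all 35 splits of 7 libraries into 3 and 4 (two-sided, smallest possible p 0.0286). The log2 ratio of Gpx2 to Gpx1 was 0.98 ± 0.07 in the 3 PBS libraries and 5.02 ± 0.14 in the 4 TNF libraries (SD). That of Txnrd2 to Txnrd1 was -4.45 ± 0.45 in the 3 PBS libraries and -8.14 ± 0.54 in the 4 TNF libraries (SD), a difference of -3.69 against the mitochondrial reductase. Txn2 to Txn1 likewise shifted to the cytosolic form, with -1.40 ± 0.08 in the 3 PBS libraries and -2.37 ± 0.20 in the 4 TNF libraries (SD). For Gclm to Gclc the log2 ratio was -0.43 ± 0.15 in the 3 PBS libraries and -1.99 ± 0.15 in the 4 TNF libraries (SD), that is, fewer transcripts of the modifier per transcript of the catalytic subunit. The ratio of Sod2 to Sod1 rose from -0.51 ± 0.14 to 0.11 ± 0.16 (log2, SD). In each of these 5 pairs all TNF libraries lay on one side of all PBS libraries (exact permutation p = 0.0286, 0.0343 adjusted over the 6 pairs). This is the smallest p that the splits allow. The ratio of Txnrd2 to Txnrd1 had to separate, because its genes already separated the groups in opposite directions. Txnip to Txn1 had 0.95 ± 0.13 in the 3 PBS libraries and 0.76 ± 0.22 in the 4 TNF libraries (SD), overlapped between groups and gave an exact permutation p of 0.257.

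**Figure D4:**
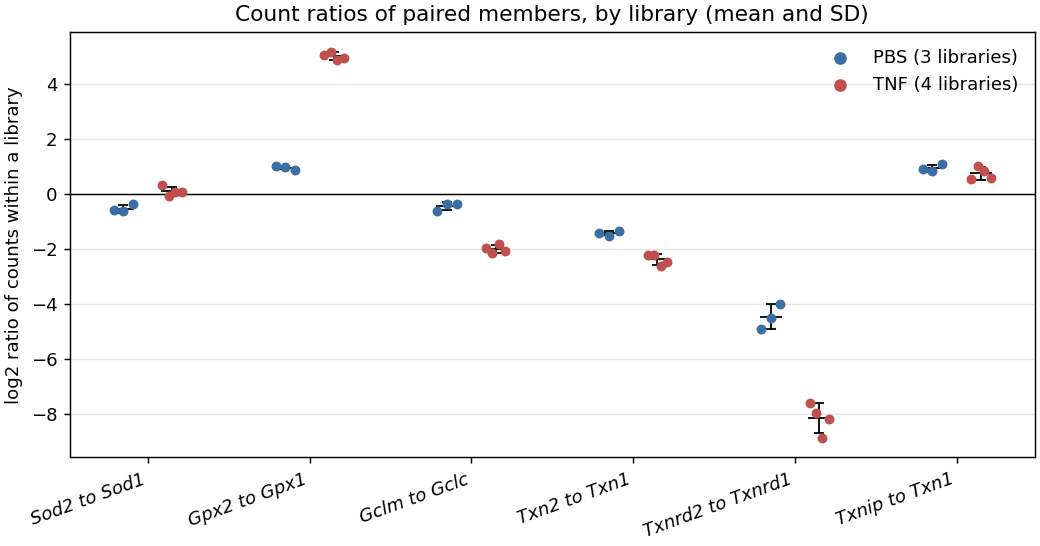
Log2 ratios of counts of 6 pairs of members within each library, with group means and SDs in black. PBS (blue) and TNF (red) libraries separate in the 5 pairs other than Txnip to Txn1, and Gpx2 to Gpx1 rises from 0.98 to 5.02.

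Some properties that were not used to list the members were also read off. Of 7 selenoproteins among them (Gpx1, Gpx2, Gpx3, Gpx4, Txnrd1, Txnrd2 and Msrb1), 6 were tested, 3 were higher and 2 lower (all genes: 29.5% higher and 30.1% lower), with log2 fold changes from -1.93 to 4.86. Of 4 members counted here as mitochondrial (Txn2, Txnrd2, Prdx3 and Sod2), 2 were higher, 1 was lower and 1 was not called. Prdx5, found in several compartments, was not counted among them. Both groups are too small to be set apart from all genes.

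Of 61 further genes of the NRF2, glutathione and thioredoxin systems, 56 were tested, and 25 were higher and 15 lower after TNF (71.4% DEGs, all genes: 59.6%), with a median log2 fold change of 0.31. Among 10 partners and regulators of NRF2, 8 (80%) were higher and 1 (10%) lower, against 29.5% and 30.1% of all genes. The largest rises were those of Maff, a small MAF partner, with 10.6 ± 1.56 CPM after PBS and 55.5 ± 5.3 CPM after TNF (SD, n = 3 and 4) and a log2 fold change of 2.39 ± 0.14 (SE, with adjusted p = 8.66e-09 in edgeR), of Sqstm1, the autophagy receptor that binds KEAP1 (log2 fold change 2.23 ± 0.14, SE, with adjusted p = 1.28e-08 in edgeR), and of Mafg, another small MAF (1.70 ± 0.12, SE, with adjusted p = 3.91e-08 in edgeR). Mafk, Bach1, which competes with NRF2 for its sites, Nfe2l1, Rbx1 and Cul3, the last 2 being parts of the ligase that KEAP1 serves, made up the other rises. The fall was that of Btrc, part of a second ligase for NRF2, with 21.5 ± 1.46 CPM after PBS and 11.5 ± 1.32 CPM after TNF and a log2 fold change of -0.90 ± 0.14 (SE, with adjusted p = 0.000106 in edgeR).

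Among 16 tested genes listed as further NRF2 targets, 9 (56.2%) were higher and 2 (12.5%) lower (all genes: 29.5% and 30.1%). Me1, the cytosolic malic enzyme that yields NADPH, was at 0.742 ± 0.327 CPM after PBS and 16.8 ± 3.73 CPM after TNF (SD, n = 3 and 4), a log2 fold change of 4.50 ± 0.31 (SE, with adjusted p = 3.92e-08 in edgeR) on 40 counts over the PBS libraries. Slc7a11, the cystine carrier that feeds glutathione synthesis, was at 13 ± 5.21 CPM after PBS and 101 ± 28.2 CPM after TNF, with 2.95 ± 0.31 (SE, with adjusted p = 3.65e-05 in edgeR). Pgd, an NADPH-yielding enzyme of the pentose phosphate pathway, had a log2 fold change of 1.91 ± 0.11 (SE, with adjusted p = 6.53e-09 in edgeR). Ephx1, microsomal epoxide hydrolase, fell 3.98-fold (-1.99 ± 0.12, SE, with adjusted p = 1.22e-08 in edgeR), and the glutathione transferase Gstm1 fell 3.11-fold (-1.64 ± 0.18, SE, with adjusted p = 4.04e-06 in edgeR). The list therefore held strong changes of either sign. Osgin1, Taldo1, Blvrb, Fth1 and Ugdh were not called, and Aldh3a1 had 0 counts in every library.

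Of 18 tested genes of glutathione handling, 5 (27.8%) were higher and 7 (38.9%) lower, with a median of -0.08, and these shares are near those of all genes (29.5% and 30.1%). Slc3a2, the heavy chain that carries Slc7a11 to the membrane, rose (1.06 ± 0.14, SE, with adjusted p = 2.27e-05 in edgeR), as did Mgst1, a microsomal glutathione transferase (1.03 ± 0.17, SE, with adjusted p = 0.000161 in edgeR), and Glo1, glyoxalase 1 (0.75 ± 0.11, SE, with adjusted p = 3.38e-05 in edgeR). Gstk1, a glutathione transferase of mitochondria and peroxisomes, had a mean below 5 CPM over all libraries and fell from 4.22 ± 1.53 to 0.488 ± 0.226 CPM. This gene was picked after its values were seen, and its fitted change was -3.11 ± 0.47 (SE, with adjusted p = 6.42e-05 in edgeR) on the log2 scale. Above that level of 5 CPM, falls were largest for Chac2, which cleaves glutathione, with 10.6 ± 4.4 CPM after PBS and 1.53 ± 0.381 CPM after TNF (SD, n = 3 and 4) and a log2 fold change of -2.79 ± 0.33 (SE, with adjusted p = 7.49e-06 in edgeR), followed by Ggt6 (-1.53 ± 0.16, SE, with adjusted p = 1.81e-06 in edgeR) and Mgst2 (-1.15 ± 0.18, SE, with adjusted p = 7.43e-05 in edgeR). Among 12 tested thioredoxin-related and repair genes, 3 (25%) were higher and 5 (41.7%) lower (all genes: 29.5% and 30.1%). Txnrd3, another thioredoxin reductase, and Txnl1 rose by 1.24 ± 0.15 and 0.76 ± 0.12 on the log2 scale (SE, with adjusted p = 7.17e-06 and 0.000107 in edgeR). Sesn3, a sestrin, changed by -1.85 ± 0.13 on the log2 scale, and Selenow and Ccs, the copper chaperone of SOD1, changed by -1.03 ± 0.16 and -0.72 ± 0.19 (SE, with adjusted p = 4.4e-08, 7.16e-05 and 0.00496 in edgeR). Txndc12, a thioredoxin-like protein of the endoplasmic reticulum, was called at 0.33 ± 0.13 (SE, with adjusted p = 0.0469 in edgeR). The call failed in 9 of 14 alternatives, among them without PBS replicate 2 (0.36) or 3 (0.19) and without TNF replicate 2 (0.36), 3 (0.34) or 4 (0.26).

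**Figure D5:**
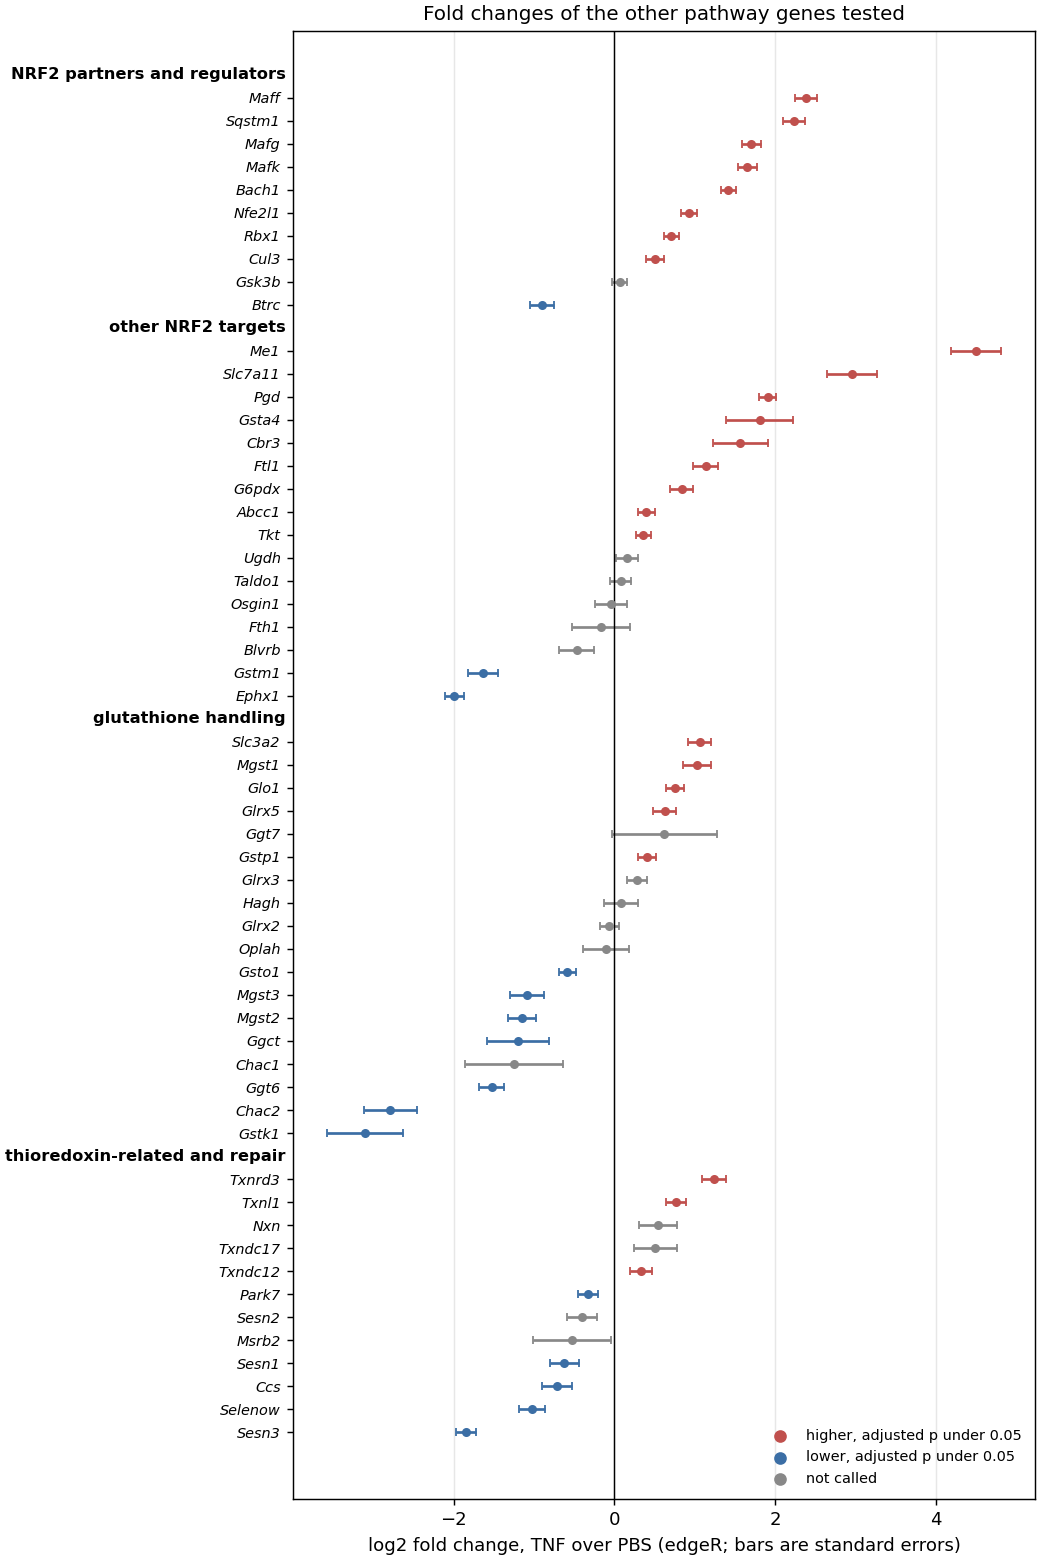
Log2 fold changes, TNF over PBS, of the 56 tested further genes of the pathway, with edgeR standard errors, grouped into 4 lists. Red points (25 genes) were called higher, blue points (15 genes) lower, and grey points were not called.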

How the data were processed

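Bulk RNA-seq of sorted PCs from 3 PBS and 4 TNF mice was analysed. The authors deposited raw counts, whole numbers of reads per Ensembl gene, with 1 column per library and nothing normalized. Per the submitters' processing notes, FastQC, Trimmomatic 0.39, STAR 2.7.10a and DESeq2 were used, and the builds mm10 and mm39 are both named. The sources used here name no annotation, counting program or strand setting. Symbols, coordinates and transcript lengths came from GENCODE M39 on GRCm39, in which 98.8% of identifiers were found, and may differ from the counted intervals.

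Counts were tested in R 4.3.3 with edgeR 4.0.16 (TMM scaling, filterByExpr, robust quasi-likelihood fit, two-sided, Benjamini-Hochberg over all 14329 genes tested, threshold 0.05) on all 7 libraries without covariates. The SE was taken from the fold change and its F statistic. CPM (scale 1e6) use TMM-scaled library sizes. Ratios of counts used a pseudocount of 0.5 and an exact permutation test. The code was tested on simulated data. Between libraries of one group, chi-square over its degrees of freedom was 17.2 or more, above sampling noise, and each library was kept as 1 sample.

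The members and gene lists were chosen with earlier results of these data known. Values in every library are given for Nfe2l2, Keap1 and members called with a log2 fold change of at least 1 in size. Of the other pathway genes, the 3 largest called rises and the 3 largest falls per list, with separate groups and a mean of at least 5 CPM over all libraries, are given with values, and further names serve only to complete a list. Alternatives were the size factors of DESeq2 1.42.0, total counts, TMM without alpha-defensins and Lyz1, 2 other filters, the DESeq2 test, a replicate block, leaving out each library, and a pseudocount of 5 for the ratios. Of the 34 members, 21 have exons that overlap another annotated gene, 20 of them on the other strand, so their counts are uncertain there.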

Additional observations from a re-analysis of the deposited data

Results flagged for a closer look

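Each value was checked for a TNF library that lay far from the other 3 relative to the range of the group. The PBS group of 3 was not checked. It was found for 6 of 71 values, and chance alone gives about 1 in 20. Keap1 was 77.3 CPM in TNF replicate 1 and 87.1 to 88.5 CPM in the others, and Prdx3 was 50.5 CPM in that library and 58.9 to 60.3 CPM elsewhere. Me1 was highest in TNF replicate 3, at 22.3 CPM against 14.4 to 15.2 CPM. Mgst2 was 5.89 CPM in TNF replicate 4 (others 8.73 to 9.23 CPM), where Txndc12 was 48.5 CPM (others 40.96 to 41.6 CPM). The summed erythroid markers were 0.236 CPM in TNF replicate 2 and 0 in the other TNF libraries.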

How the results depend on the processing

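The number of members called was 24 and ran from 21 to 24 over 14 alternatives, and that of the other pathway genes was 40 and ran from 37 to 42. Over all genes tested, the share called was 59.6% and ran from 49.8 to 62.8% with a filter on low counts, and it was 37% of 24572 genes without the filter and 35.7% of 24568 genes in DESeq2. For 52 genes (31 members and 21 other named genes), 695 of 726 values under an alternative kept their side of the threshold, 30 lost the call and 1 gained it. None of the called genes changed sign, whereas uncalled Prdx4, Prdx6 and Gpx4, with values near 0, did so under some alternatives. The lost calls were those of Txn2, Prdx2, Prdx5, Sod1 and Txndc12, and the gain was Prdx3; the cause was not tested. Scaling by total counts shifted the median over all genes from 0.0017 to -0.16 and gave 15 members higher and 6 lower, beside 3142 and 4614 of 14329 genes (54.1% called).

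Replicate numbers 1 to 3 occur in both groups, but the mice differ, and same-numbered libraries did not deviate together (correlations -0.30, -0.03 and -0.17), so the numbers were not taken as pairs. With the replicate block on numbers 1 to 3, 22 members (16 higher, 6 lower) and 37 other pathway genes were called, beside 49.8% of 14205 genes, and Prdx5 (0.39, edgeR adjusted p = 0.128), Sod1 (0.29, 0.123) and Txndc12 (0.27, 0.154) lost their calls. For the ratios, 3 numbered differences cannot go below an exact p of 0.25. The block gave log2 differences of 0.64 for Sod2 to Sod1, 4.07 for Gpx2 to Gpx1, -1.54 for Gclm to Gclc, -0.93 for Txn2 to Txn1 and -3.68 for Txnrd2 to Txnrd1. Leaving out a library leaves 15 or 20 splits, with smallest exact p of 0.0667 or 0.1, so no ratio could stay under the threshold. The differences then ran from 0.55 to 0.71 for Sod2 to Sod1, 3.99 to 4.10 for Gpx2 to Gpx1, -1.65 to -1.51 for Gclm to Gclc, -1.02 to -0.88 for Txn2 to Txn1 and -3.90 to -3.45 for Txnrd2 to Txnrd1. Depth limits Ggt1 and Gpx7 most among the tested members, with standard errors of 0.59 and 0.48 on the log2 scale, and Gpx3, Gpx8 and Sod3 had too few counts to be tested.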
